A study of Homo sapiens with 6 samples.

Results

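The study used a pair of shRNAs to knock down the long non-coding RNA MIR100HG in the MDA-MB-231 line of triple-negative breast cancer (TNBC), which has mesenchymal features. The comparison described here sets sh-MIR100HG-2 directly against sh-MIR100HG-1, so it concerns 4 of the 6 samples, 2 with each shRNA, across every gene that passed the filter on low counts. It asks in which genes the cells given one shRNA differed from the cells given the other. All 6 samples were the same cell line infected with lentivirus: the sh-TRC control vector (2 samples), sh-MIR100HG-1 (2 samples) and sh-MIR100HG-2 (2 samples), with 72 h from infection to RNA isolation by the study's methods. The control samples entered the fit as the third group and are shown beside each result. The study calls the samples of each MIR100HG shRNA biological replicates, and its text does not say so of the controls. Nothing further was stated about separate infections, so the p-values measure the spread between these samples. Of the 27745 genes listed, 15372 had at least 5 counts in at least 4 of the 6 samples and were tested.

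An shRNA is cut by the cell into a short duplex, and 1 strand of it, the guide, is loaded into an Argonaute protein and directs it to a transcript with a matching sequence. Bases 2 to 8 of the guide, the seed, can also pair with sites in the 3′UTRs of other transcripts, as the seed of a microRNA does. For this reason at least a pair of shRNAs with different seeds is commonly used for 1 target: effects of the target are shared by both, whereas effects of a seed, of the infection or of the culture need not be. MIR100HG is the host transcript of miR-100, let-7a-2 and miR-125b-1.

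The guides are shown because the seed is where the shRNAs differ in what else they could bind. The seed is in capitals, 5′ to 3′, written as RNA.
sh-MIR100HG-1: aUUUAAGUacaaacagaggaa
sh-MIR100HG-2: uUUAUUCUguaggucacucuc
Each of the 21-base targets occurred once in GRCh37, on the minus strand of chromosome 11 and within exons of MIR100HG. The target of sh-MIR100HG-1, ttcctctgtttgtacttaaat, lies from 121962132 to 121962152, in an exon of 32 of the 107 annotated transcripts. That of sh-MIR100HG-2, gagagtgacctacagaataaa, lies from 121961961 to 121961981, in an exon of 30 of the 107 transcripts. The targets start 171 bases apart. The seeds differ in sequence, and 3 of their 7 positions hold the same base, but both have a GC content of 14.3%.

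MIR100HG itself was at the same low level with either shRNA. It had 15.2 and 13.2 CPM (counts normalized by the TMM method and scaled to library size) in the sh-MIR100HG-1 samples, 16.6 and 10.4 CPM in the sh-MIR100HG-2 samples, and 41.9 and 58.5 CPM in the controls. Both shRNA groups lay below both controls and overlapped each other. The log2FC of sh-MIR100HG-2 minus sh-MIR100HG-1, on which all fold changes below are given unless stated otherwise, was -0.07 (SE 0.30). Its sign turned when the sh-MIR100HG-1 replicate 1 or the sh-MIR100HG-2 replicate 2 was left out (0.033 and 0.22) and when the trends on gene length and GC content were removed (0.093).

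The libraries held 43804736 to 64588388 counts, so counting error was small for all but the lowest genes. The common biological coefficient of variation was 27.8%. In the genes with a mean count of at least 100, the SD of the log2 difference between replicates was 0.513 in the sh-MIR100HG-1 group, 0.569 in the sh-MIR100HG-2 group and 0.505 in the control. The mesenchymal markers of the line, among them VIM (1605.5 to 2094.3 CPM), AXL and CD44, were high in all samples. The progesterone receptor gene PGR was at 0 CPM in 5 samples and at 0.024 CPM in the sixth. The estrogen receptor gene ESR1 was at 0.12 to 2.79 CPM, and ERBB2, which encodes HER2, at 71.6 to 116 CPM. The study describes TNBC by immunohistochemistry of these receptors, which RNA levels do not give.

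With edgeR's quasi-likelihood test and Benjamini-Hochberg adjustment, 0 of the 15372 genes (0.0%) passed an adjusted p of 0.05, and the smallest adjusted p was 0.509. An unadjusted p under 0.05 was found for 1453 genes (9.45%), of which 513 (3.34% of genes tested) were higher and 940 (6.12%) lower with sh-MIR100HG-2. The likelihood ratio test that the study's methods also name called 91 genes at the adjusted threshold and DESeq2 called 103. Without the filter on low counts, the quasi-likelihood test called 679 of 21349. In 3160 genes (20.6%) both sh-MIR100HG-2 samples lay above both sh-MIR100HG-1 samples, and in 3586 (23.3%) both lay below. For a single gene, 2 samples against 2 cannot go below p = 0.333 in a two-sided exact permutation test. Since no gene passed the adjusted threshold, values below are described as higher or lower, with the log2FC and its standard error (SE) from this fit, and each count of a gene list is to be read against these percentages.

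The difference between the control samples ran along that between the shRNAs. Across the 11844 genes with a mean count of at least 100, the difference between control replicate 2 and control replicate 1 had a Pearson's r of 0.744 and a Spearman's rho of 0.798 with the difference between the shRNAs. No sample was shared between these differences, but the genes shared their GC content, length and depth, and they are not independent replicates. Of the 513 genes that were higher with sh-MIR100HG-2, 269 (52.4%) had control replicate 1 on the side of sh-MIR100HG-1 and control replicate 2 on the side of sh-MIR100HG-2, where the sides are set by the middle of the shRNA samples. Of the 940 lower genes, 639 (68.0%) had this split, against 34.6% of all genes tested. The opposite split was found in 12 and 23 of these genes. A group effect of the shRNA and this difference between untargeted samples cannot be told apart in such genes, so the controls are given beside the genes whose values are printed, and the genes described as split below have control replicate 1 on the side of sh-MIR100HG-1 and control replicate 2 on that of sh-MIR100HG-2.

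**Figure D1:**
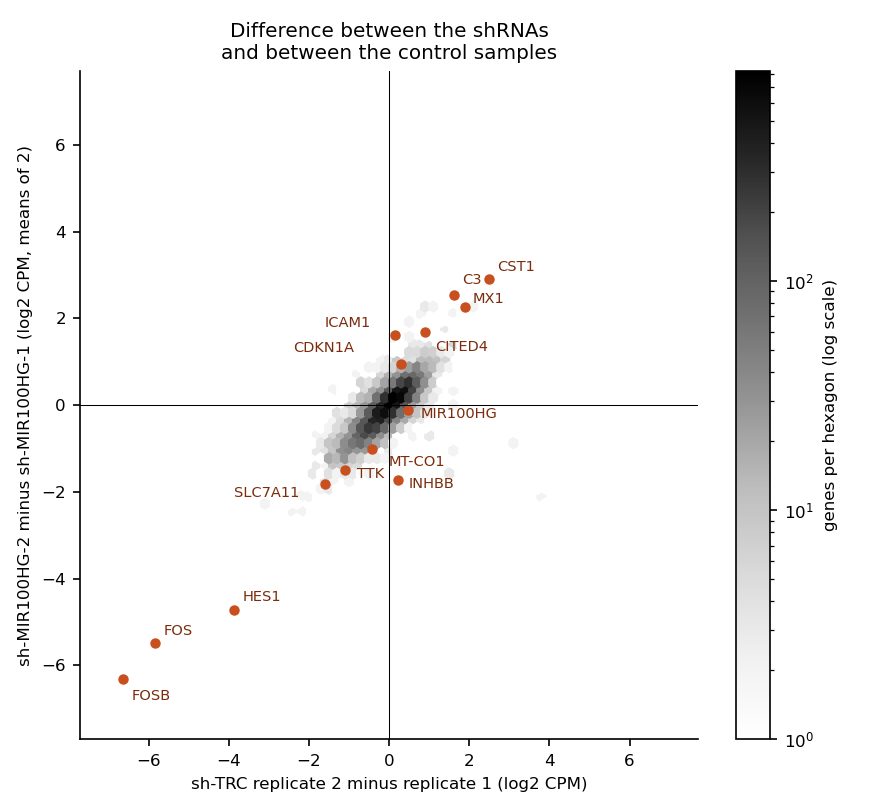
Log2 CPM of control replicate 2 minus control replicate 1 (x axis) against the mean of the sh-MIR100HG-2 samples minus the mean of the sh-MIR100HG-1 samples (y axis) for 11844 genes, with the shade giving the number of genes per hexagon on a log scale and orange points marking named genes. The cloud runs along the diagonal, with FOS, FOSB and HES1 at its lower end and CST1, C3 and MX1 at its upper end. INHBB and ICAM1 lie away from it, and MIR100HG lies near its middle.

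The GC content of the genes followed the same line. Genes were put into 5 bins of equal size by the GC content of their exons. In the lowest bin (26.5 to 41.3%), the median log2FC between the shRNAs was -0.344, and 461 of 3077 genes were lower at an unadjusted p under 0.05 against 20 higher. In the highest bin (58 to 74.7%), the median was 0.177, with 188 genes higher and 121 lower. Between the controls the medians of these bins were -0.346 and 0.239. Exon length showed a weaker trend, from 0.055 in the shortest bin to -0.103 in the longest. After each sample's trends on length and GC content were removed, 584 genes were higher and 704 lower, so the share of higher genes went from 35.3% to 45.3%.

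**Figure D2:**
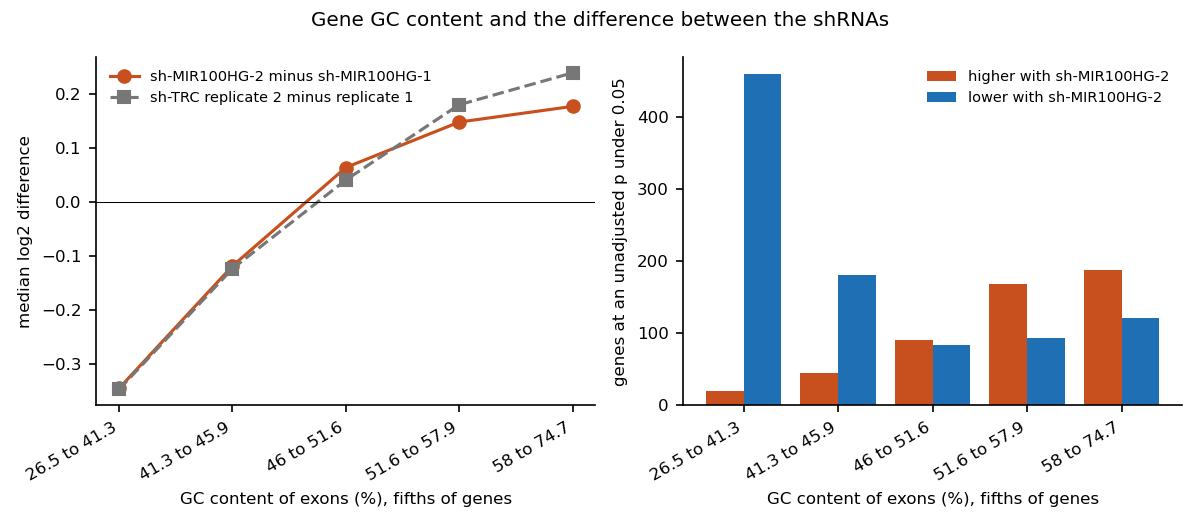
Genes in 5 bins by the GC content of their exons (x axes, in percent). The left panel gives the median log2 difference between the shRNAs (solid line) and between control replicates 2 and 1 (dashed line), which nearly coincide, and the right panel the number of genes at an unadjusted p under 0.05, with 461 lower genes in the bin of lowest GC content.

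The cell cycle genes that the study's text names stood close to each other with the shRNAs, apart from CDKN1A. CDKN1B, which encodes the CDK inhibitor p27, had 94.8 and 139 CPM with sh-MIR100HG-1, 106 and 154 CPM with sh-MIR100HG-2, and 61.5 and 74.0 CPM in the controls. The log2FC between the shRNAs was 0.16 (SE 0.28). CDC25A, a phosphatase that activates CDKs, had 66.8 and 108 CPM with sh-MIR100HG-1, 82.5 and 132 CPM with sh-MIR100HG-2 and 29.0 and 36.3 CPM in the controls, a log2FC between the shRNAs of 0.29 (SE 0.32). In both genes the shRNA groups overlapped, and all 4 shRNA samples were above both controls. WEE1, the kinase that inhibits CDK1, had a log2FC between the shRNAs of -0.06, CCNF, encoding cyclin F, 0.17, and CDK18 0.14, with unadjusted p from 0.578 to 0.818 and overlapping groups. In WEE1 and CCNF both controls were below all 4 shRNA samples, and in CDK18 both were above them. CCND1, encoding cyclin D1, had 651 and 695 CPM with sh-MIR100HG-1 compared with 571 and 597 CPM for sh-MIR100HG-2, a log2FC of -0.20 (SE 0.19) with no overlap and with controls at 532 and 525 CPM. The genes near MIR100HG on chromosome 11 also overlapped between the shRNAs. BLID had a log2FC of -0.36 at 0.10 to 0.28 CPM over all samples, UBASH3B of 0.03 and SORL1 of -0.09, with the smallest unadjusted p at 0.638.

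CDKN1A, which encodes the CDK inhibitor p21 and is a target of p53, was higher with sh-MIR100HG-2. It had 305 and 285 CPM with sh-MIR100HG-2, 127 and 186 CPM with sh-MIR100HG-1 and 157 and 195 CPM in the controls. Both sh-MIR100HG-2 samples were above the other 4 (log2FC 0.91, SE 0.25). BBC3, encoding the BH3-only protein PUMA, had 47.1 and 46.1 CPM with sh-MIR100HG-2, against 25 and 27.8 CPM with sh-MIR100HG-1 and 23.3 and 18.4 CPM in the controls (log2FC 0.82, SE 0.23). Of 35 p53 target genes tested, 2 (CDKN1A and BBC3) were higher and 1 (RRM2B) lower at an unadjusted p under 0.05, and the median log2FC of the list was -0.05. In the BCL2 family and its regulators, 5 of 31 genes were higher at that p and 0 lower, with a median of 0.19. They include BAK1 (99.7 and 89.1 CPM with sh-MIR100HG-1, 180 and 190 CPM with sh-MIR100HG-2, 80.5 and 142 CPM in the controls), a pore-forming effector of apoptosis, and BCL2L11 (log2FC 0.77, SE 0.27; split controls at 16.8 and 21.2 CPM), encoding the BH3-only protein BIM.

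In some of the named genes, the sh-MIR100HG-2 samples lay apart from both the controls and the sh-MIR100HG-1 samples. Of the 509 genes that were higher at an unadjusted p under 0.05 without overlap, 176 had both sh-MIR100HG-2 samples above both controls while the sh-MIR100HG-1 samples were not below both, and in 222 the reverse held, with only sh-MIR100HG-1 apart from the controls. Of the 935 lower genes, these numbers were 363 and 283. The counts do not require the controls to lie close to each other. They cover only genes selected for separation and were not made over all genes tested. Whether either placement is more common than over all genes is therefore not known. ICAM1, an adhesion molecule for leukocytes, had 1102.1 and 662 CPM with sh-MIR100HG-2, 215 and 363 CPM with sh-MIR100HG-1 and 239 and 265 CPM in the controls (log2FC 1.61, SE 0.33). CITED4, a transcriptional co-activator, had 52.9 and 34.4 CPM with sh-MIR100HG-2 and 9.79 to 18.4 CPM elsewhere (log2FC 1.72, SE 0.36). ICAM1 and CITED4 were thus high with sh-MIR100HG-2 alone, whereas the sh-MIR100HG-1 samples were near the controls.

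On the lower side, INHBB, which encodes the beta B subunit of inhibins and activins, had 6.0 and 10.1 CPM with sh-MIR100HG-2, 33.0 and 20.2 CPM with sh-MIR100HG-1 and 24.3 and 28.3 CPM in the controls. Its log2FC was -1.73 (SE 0.35). IGFBP1, an insulin-like growth factor binding protein, had 7.74 and 7.59 CPM with sh-MIR100HG-2, 15.0 and 24.5 CPM with sh-MIR100HG-1 and 33.4 and 27.5 CPM in the controls (log2FC -1.36, SE 0.30). The long non-coding RNA LINC00261 had 6.30 and 8.93 CPM with sh-MIR100HG-2, 16.5 and 20.9 CPM with sh-MIR100HG-1 and 27.7 and 25.4 CPM in the controls (log2FC -1.29, SE 0.28). For IGFBP1 and LINC00261 all samples of both shRNAs were below the controls, those of sh-MIR100HG-2 by more. ITGA5, the alpha subunit of the fibronectin receptor, was high with sh-MIR100HG-2 (1024.4 and 1068.2 CPM), against 486 and 610 CPM with sh-MIR100HG-1, but its controls were far apart, at 322 and 647 CPM.

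**Figure D3:**
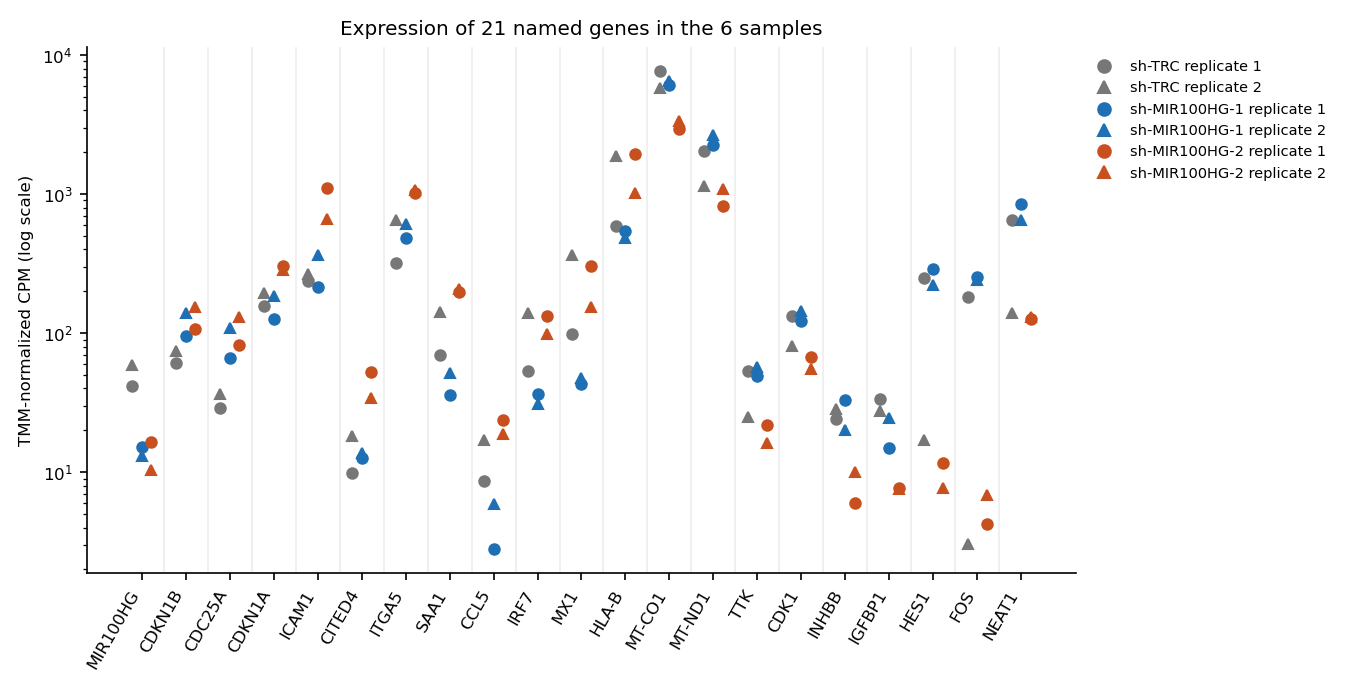
TMM-normalized CPM on a log axis for 21 named genes, with 1 point per sample (grey for sh-TRC, blue for sh-MIR100HG-1, orange for sh-MIR100HG-2, circles for replicate 1 and triangles for replicate 2). MIR100HG, CDKN1B and CDC25A overlap between the shRNAs, ICAM1, CITED4 and INHBB have both controls near sh-MIR100HG-1, and MX1, HES1, FOS and NEAT1 have the controls on opposite sides.

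Interferon-stimulated genes, which interferon signalling switches on through an interferon-stimulated response element (ISRE) in their promoters, were higher with sh-MIR100HG-2 than with sh-MIR100HG-1. Of 54 tested, 49 were higher, 32 without overlap, and 29 (53.70%) at an unadjusted p under 0.05 against 0 lower. The median log2FC was 0.74. RSAD2, encoding the antiviral protein viperin, had 14.5 and 18.5 CPM with sh-MIR100HG-1, 94.1 and 41.3 CPM with sh-MIR100HG-2 and 26.2 and 35.1 CPM in the controls (log2FC 2.04, SE 0.39). USP18, which removes ISG15 from proteins and dampens interferon signalling, had 10.9 and 12.6 CPM with sh-MIR100HG-1, 40.9 and 28.7 CPM with sh-MIR100HG-2 and 16.6 and 35.0 CPM in the controls. MX1, encoding an antiviral GTPase, had 43.0 and 47.5 CPM with sh-MIR100HG-1, 303 and 155 CPM with sh-MIR100HG-2 and 98.1 and 363 CPM in the controls (log2FC 2.34, SE 0.57). In each of these the sh-MIR100HG-1 samples were the lowest, below both controls, while the sh-MIR100HG-2 samples were above both controls for RSAD2 only. IFI6 (log2FC 2.49), IRF7 (1.78) and OAS1 (2.63) had controls on opposite sides in the same way as MX1.

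Over the whole list, the median relative to the mean of the controls was -0.86 and -0.76 in the sh-MIR100HG-1 samples, 0.36 and -0.15 in the sh-MIR100HG-2 samples, and -0.25 and 0.25 in the controls on the log2 scale. The sh-MIR100HG-1 samples were thus apart from the controls and the sh-MIR100HG-2 samples were among or near them. The median log2FC against the controls was -0.76 for the first shRNA and 0.03 for the second. Not all members took part. IFIT1 and IFIT3, named after their values were seen, are among the most abundant interferon-stimulated genes here. IFIT1 had 547 and 407 CPM with sh-MIR100HG-1 compared with 598 and 335 CPM for sh-MIR100HG-2, a log2FC of -0.03. IFIT3 had 977 and 627 CPM with sh-MIR100HG-1 compared with 1142.2 and 531 CPM for sh-MIR100HG-2, a log2FC of 0.06, and in both the groups overlapped.

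Promoter windows, from 250 bases before to 50 bases after the gene start in RefSeq (GRCh38.p14), could be matched to 11724 of the genes tested. An ISRE-like motif, GAAA and GAAA with any 2 bases between them, was searched on both strands. It was found in 27 of 43 matched interferon-stimulated genes (62.8%), against 3.6% of all 27305 promoters. Among the genes higher with sh-MIR100HG-2 at an unadjusted p under 0.05, 40 of 386 (10.4%) had the motif, and among the lower genes 15 of 700 (2.1%), against 3.0% of genes tested. Within the interferon-stimulated genes the median log2FC was 0.73 with the motif and 0.72 without it. Stretches around the motif are printed for a pair of members that were higher with sh-MIR100HG-2 and a pair that was not, with the motif in capitals, to show that it stands in both kinds.
MX1: gcagaaatGAAACCGAAActgaattg
IFI6: agagagggGAAAATGAAActctgcag
IFIT1: aacctaggGAAACCGAAAggggaaag
IFIT3: ggaaactgGAAAGTGAAActaattta
They lie in GRCh38.p14 at chr21:41420561-41420586 (plus strand, MX1), chr1:27672331-27672356 (minus strand, IFI6), chr10:89392512-89392537 (minus strand, IFIT1) and chr10:89327867-89327892 (minus strand, IFIT3), on the strand of the gene for MX1 and IFI6 and on the opposite strand for IFIT1 and IFIT3. The 10 letters of the motif are identical in MX1 and IFIT1, and the log2FC was 2.34 and -0.03 in these genes.

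Genes of antigen presentation by MHC class I were also higher. Of 20, 18 were higher and 9 (45.00%) at an unadjusted p under 0.05, 0 lower, with a median log2FC of 0.70. The median difference between the controls was as large, 0.71, and 17 of the 20 genes had the controls split between the shRNAs. HLA-B, a class I heavy chain, had 540 and 483 CPM with sh-MIR100HG-1, 1954.6 and 1023.7 CPM with sh-MIR100HG-2 and 590 and 1865.7 CPM in the controls. Reads of HLA genes can be shared between near-identical members, so the level of each is uncertain. TAP1, a subunit of the peptide transporter, had a log2FC of 1.04 (SE 0.33). The immunoproteasome subunits PSMB8 (1.04, SE 0.35) and PSMB9 (0.96, SE 0.35) were higher, and PSMA3, an alpha subunit of the proteasome core, was lower (-0.73, SE 0.28). TAP1, PSMB8, PSMB9 and PSMA3 all had split controls, for TAP1 at 151 and 278 CPM. Over all 39 proteasome subunits, 4 were higher and 2 lower at an unadjusted p under 0.05, with a median of 0.21.

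NF-kB targets and cytokines differed from these lists in the median difference between the controls. Of 29, 20 were higher with sh-MIR100HG-2, 9 (31.03%) at an unadjusted p under 0.05 against 1 lower, and the median log2FC was 0.39 while that between the controls was -0.45. CCL5, a chemokine for T cells, had 2.79 and 5.88 CPM with sh-MIR100HG-1, 23.5 and 18.8 CPM with sh-MIR100HG-2 and 8.6 and 17.2 CPM in the controls (log2FC 2.30, SE 0.46). TNFAIP2, induced by tumour necrosis factor, had 256 and 292 CPM with sh-MIR100HG-1, 667 and 506 CPM with sh-MIR100HG-2 and 344 and 372 CPM in the controls (log2FC 1.10, SE 0.22). In both genes the shRNAs lay on opposite sides of both controls. Control replicate 2 was above control replicate 1 in both, unlike the list's median, and CCL5 had split controls. Of the 29 genes, 9 had split controls and 3 the opposite split. The list's median relative to the controls was -0.38 and 0.29 in the sh-MIR100HG-1 samples and 0.64 and 0.07 in the sh-MIR100HG-2 samples, so as a list the shRNA groups overlapped. Without sh-MIR100HG-2 replicate 2 the median log2FC was 0.84, and without sh-MIR100HG-2 replicate 1 it was 0.068. An NF-kB-like motif, GGG and TTTCC with any 2 bases between them, was searched on both strands. It was in the promoter window of 11 of 23 matched members (47.8%), against 1.9% of all promoters, and the median log2FC was 0.24 with it and 0.40 without.

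SAA1, an acute-phase apolipoprotein, had 36.1 and 51.6 CPM with sh-MIR100HG-1, 198 and 209 CPM with sh-MIR100HG-2 and 70.2 and 143 CPM in the controls. Its log2FC was 2.21 (SE 0.35) with the smallest unadjusted p of all genes with a symbol, 2.1e-04. SAA2, its near-identical neighbour, followed it (1.99, SE 0.39), with controls at 11.8 and 21.1 CPM, and reads may be shared between the SAA genes. C3, the central complement component, had 7.48 and 8.76 CPM with sh-MIR100HG-1, 74.1 and 30.9 CPM with sh-MIR100HG-2 and 16.5 and 51.2 CPM in the controls (log2FC 2.69). CST1, a secreted cysteine protease inhibitor, had the largest log2FC by the rule for abundant genes, 2.95, with 50.5 and 39.4 CPM against 431 and 262 CPM, but its controls were at 64.7 and 362 CPM. TYMP, encoding thymidine phosphorylase, had 2.92 and 2.17 CPM with sh-MIR100HG-1, against 18 and 9.89 CPM with sh-MIR100HG-2 and 6.65 and 18 CPM in the controls (log2FC 2.45, SE 0.52).

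Transcripts of the mitochondrial genome were lower with sh-MIR100HG-2. All 13 mitochondrially encoded protein genes, which specify subunits of the respiratory chain and of ATP synthase, were lower without overlap, 12 of them (92.31%) at an unadjusted p under 0.05, with a median log2FC of -1.01. MT-CO1, a subunit of cytochrome c oxidase, had 6114.4 and 6563.3 CPM with sh-MIR100HG-1, 2921.3 and 3341.9 CPM with sh-MIR100HG-2 and 7695.8 and 5753.4 CPM in the controls (log2FC -1.02, SE 0.22). MT-ND1, of complex I, had 2243.0 and 2649.6 CPM with sh-MIR100HG-1, 823 and 1091.6 CPM with sh-MIR100HG-2 and 2032.7 and 1146.7 CPM in the controls (log2FC -1.35, SE 0.30). Both sh-MIR100HG-2 samples were below both controls in both genes, narrowly so for MT-ND1. The exception to the p threshold was MT-ND3, with a log2FC of -0.35.

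The share of all counts that came from the mitochondrial genome was 3.30% and 3.38% in the sh-MIR100HG-1 samples, 1.52% and 1.84% in the sh-MIR100HG-2 samples, and 3.46% and 2.41% in the controls, so sh-MIR100HG-2 had the 2 lowest shares and the controls did not reach them. With the trends on length and GC content removed, the list median was -0.76. These genes are transcribed as long precursors, so they are not independent of each other, and in bulk RNA fewer mitochondrial transcripts per cell and fewer cells that carry many of them cannot be told apart. Nuclear genes of oxidative phosphorylation did not follow. Of 75, 55 were higher and 20 lower, 1 and 2 at an unadjusted p under 0.05, with a median log2FC of 0.16. Among them NDUFA5 had a log2FC of -0.94, COX6C of -0.59 and NDUFS7 of 0.59, all with split controls. Cytosolic ribosomal proteins had a median of 0.13, with 0 of 79 higher and 1 lower (RPL36A, -1.51, split controls) at that p.

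**Figure D4:**
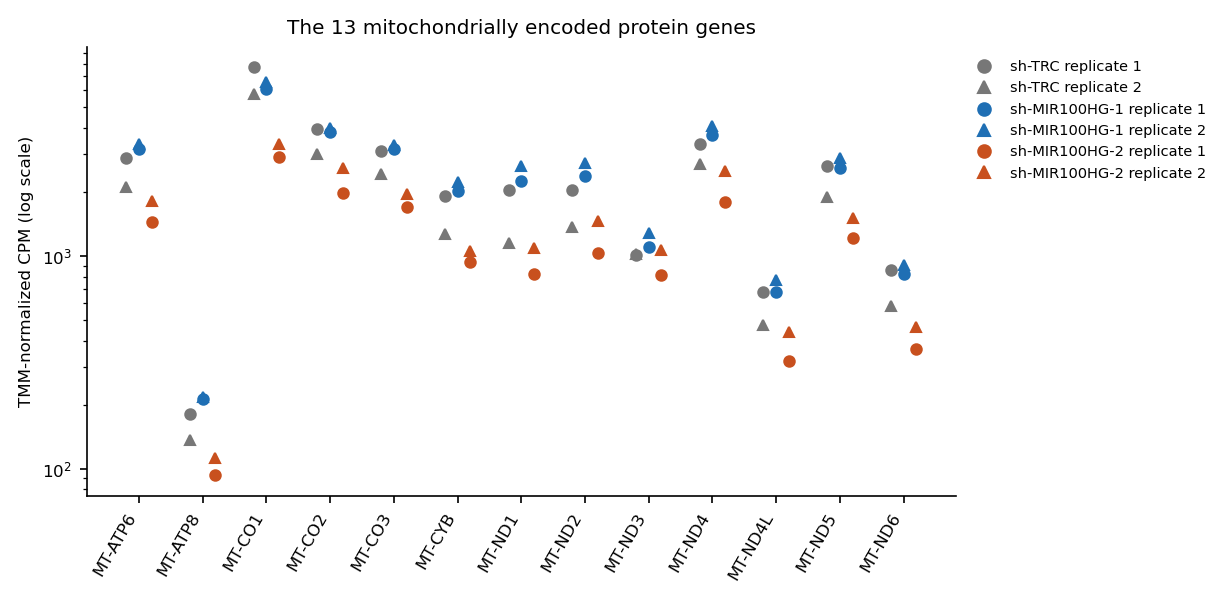
TMM-normalized CPM on a log axis for the 13 protein genes of the mitochondrial genome, with 1 point per sample (colours for the shRNA, shapes for the replicate). The orange sh-MIR100HG-2 points are below the blue sh-MIR100HG-1 points in each gene, and below both grey controls in each but MT-ND2 and MT-ND3.

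Genes of the mitotic spindle and kinetochore were lower with sh-MIR100HG-2. Of 49, 45 were lower, 28 without overlap and 21 (42.86%) at an unadjusted p under 0.05, with 0 higher at that p. The median log2FC was -0.55. KIF15, a spindle kinesin, had 46.7 and 52.6 CPM with sh-MIR100HG-1, 25 and 23.8 CPM with sh-MIR100HG-2 and 39.9 and 29.5 CPM in the controls (log2FC -1.03, SE 0.24). TTK, a kinase of the spindle checkpoint, had 49.3 and 56.7 CPM with sh-MIR100HG-1, 21.7 and 16.2 CPM with sh-MIR100HG-2 and 53.6 and 24.9 CPM in the controls (log2FC -1.48, SE 0.36). NUF2, of the kinetochore, had a log2FC of -1.31 with controls at 53.4 and 27.9 CPM. In KIF15 and TTK the sh-MIR100HG-2 samples were the lowest of all, and for TTK control replicate 2 was close to them.

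The list's median relative to the controls was 0.22 and 0.21 in the sh-MIR100HG-1 samples and -0.30 and -0.40 in the sh-MIR100HG-2 samples, with the controls at 0.10 and -0.10. The genes of this list have a low GC content, with a median of 42.0%, and the median log2FC went to -0.34 when the trends on length and GC content were removed. CDK1, the kinase that drives mitosis, had 123 and 144 CPM with sh-MIR100HG-1, 67.8 and 55.1 CPM with sh-MIR100HG-2 and 133 and 81.4 CPM in the controls (log2FC -1.12, SE 0.28). Over the 44 CDK inhibitors, cyclins, CDKs and RB and E2F genes, 2 were higher and 4 lower at an unadjusted p under 0.05, with a median of 0.00. BLM, a helicase of the S-phase list, had a log2FC of -0.97, with controls at 12.3 and 12.6 CPM between the shRNAs (16.8 and 17.8 CPM against 9.48 and 8.17 CPM). USP1 (-0.98) and CENPU (-1.33), of the same list, had split controls. That list had a median of -0.19, with 6 of 43 genes lower at an unadjusted p under 0.05 and 0 higher, and the G2/M list one of -0.42, with 20 of 54 lower and 0 higher. Replication-dependent histones, whose mRNAs mostly lack a poly(A) tail, had a median of -0.18, and their values within a group differed widely.

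Immediate early genes and HES1 had the largest negative log2FC among the genes of at least 10 CPM on average that were lower at an unadjusted p under 0.05 without overlap. FOS, a subunit of the AP-1 transcription factor, had 252 and 242 CPM with sh-MIR100HG-1, 4.23 and 6.83 CPM with sh-MIR100HG-2, and 182 and 3.06 CPM in the controls (log2FC -5.48, SE 1.44). FOSB had 252 and 313 CPM with sh-MIR100HG-1, 2.03 and 5.67 CPM with sh-MIR100HG-2, and 216 and 2.06 CPM in the controls. The controls thus spanned the whole difference between the shRNAs in both genes. EGR1 (log2FC -3.27) and ATF3 (-3.14) had the same split, with controls at 451 and 39.3 CPM and at 267 and 26.7 CPM. The Notch target HES1 had 288 and 221 CPM with sh-MIR100HG-1, 11.7 and 7.71 CPM with sh-MIR100HG-2, and 248 and 16.9 CPM in the controls (log2FC -4.72, SE 1.03). Of 31 AP-1 and immediate early genes, 9 (29.03%) were lower and 1 higher at an unadjusted p under 0.05. The list's median was -0.23, against -0.60 between the controls, which makes the controls differ by more than the shRNAs.

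The abundant nuclear long non-coding RNAs NEAT1 and MALAT1, named after their values were seen, were split in the same way. NEAT1, the scaffold of paraspeckles, had 843 and 647 CPM with sh-MIR100HG-1, 127 and 130 CPM with sh-MIR100HG-2, and 652 and 141 CPM in the controls (log2FC -2.54, SE 0.59). MALAT1 had 994 and 1555.2 CPM with sh-MIR100HG-1, 191 and 350 CPM with sh-MIR100HG-2, and 1617.0 and 304 CPM in the controls (log2FC -2.24, SE 0.68). Long non-coding RNAs as a class had a median log2FC of -0.15, with 18 higher and 69 lower of 1106 at an unadjusted p under 0.05. Protein-coding genes had a median of -0.005, with 491 higher and 853 lower of 14061. The share of long non-coding RNAs that were lower was near the 6.12% of all genes tested. Their share of higher genes was below the 3.34% of all genes tested.

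**Figure D5:**
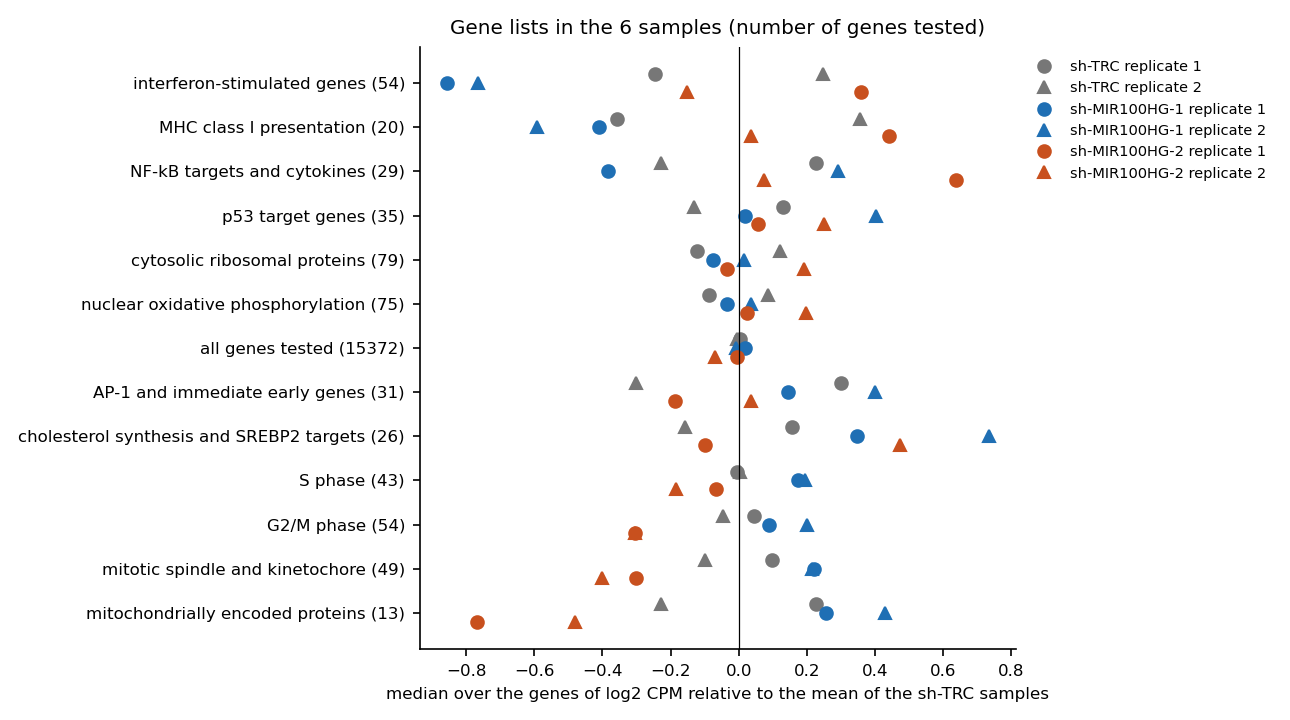
Median over the genes of each list of log2 CPM relative to the mean of the sh-TRC samples (x axis), with 1 point per sample and the number of genes tested in parentheses. The mitochondrially encoded and the spindle genes have sh-MIR100HG-2 below and sh-MIR100HG-1 above both controls, and the interferon-stimulated genes have sh-MIR100HG-1 at -0.86 and -0.76, below both controls.

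Lists of metabolism and stress showed smaller differences. Of 26 cholesterol synthesis genes, 20 were lower with sh-MIR100HG-2 and 3 at an unadjusted p under 0.05, with a median of -0.23 that had the other sign (0.14) without sh-MIR100HG-2 replicate 1. HMGCS1, which makes HMG-CoA, had 103 and 135 CPM with sh-MIR100HG-1, 52.4 and 53.9 CPM with sh-MIR100HG-2 and 66.0 and 28.0 CPM in the controls (log2FC -1.16, SE 0.37). Here it was sh-MIR100HG-1 that lay above both controls, as it did for SC5D (-1.06) and IDI1 (-0.97). Fatty acid synthesis genes had a median of -0.32, with 2 of 17 lower at that p (ELOVL6, -0.61, and ACSL4, -0.65, the latter with split controls). That median was -0.036 without sh-MIR100HG-1 replicate 1, -0.195 and -0.156 without either sh-MIR100HG-2 sample and -0.113 with the length and GC trends removed. In the ATF4 response list, 33 of 44 were lower, 4 of them at an unadjusted p under 0.05, with a median of -0.24 that was 0.075 without sh-MIR100HG-2 replicate 1 and -0.624 without replicate 2. Among the genes past that p, SLC7A11, the cystine transporter, had 91.7 and 74.2 CPM with sh-MIR100HG-1, 17.8 and 30.5 CPM with sh-MIR100HG-2 and 101 and 33.6 CPM in the controls. EPRS1, a tRNA synthetase, had a log2FC of -0.80 with split controls. The median was 0.06 for glycolysis and hypoxia-induced genes, with CA9 (2.29) and P4HA2 (0.55) higher and VEGFA (-0.74) lower at an unadjusted p under 0.05, of which CA9 and VEGFA had split controls. It was 0.10 for heat shock proteins, of which 3 were higher (HSF1, 0.59) and 2 lower (DNAJC2, -1.58, and HSPA13, -0.84, both with split controls) at that p, and 0.20 for lysosome and autophagy genes, of which 2 of 39 were higher at that p (TFE3, 0.53, and CTSS, 1.04, both with split controls).

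In adhesion and matrix genes the directions were mixed. Of 33 collagens and matrix proteins, 5 (15.15%) were higher and 0 lower at an unadjusted p under 0.05, with a median of 0.18. COL1A1 had 46.5 and 45.5 CPM with sh-MIR100HG-1, 62.6 and 78.0 CPM with sh-MIR100HG-2 and 20.2 and 17.2 CPM in the controls, so both shRNAs lay above the controls and sh-MIR100HG-2 by more (log2FC 0.61, SE 0.22). COL6A1 (0.92) had controls at 328 and 803 CPM, the second above all shRNA samples. COL10A1, at 20 and 12 counts with sh-MIR100HG-1, had 0 counts in both sh-MIR100HG-2 samples and was at least 4.64-fold lower there, taking 3 counts per library as the floor. Integrins and laminins had a median of -0.09, with ITGA5 (0.93) among the higher and LAMA3 (-0.57) among the lower genes at that p. Of 24 mesenchymal genes, 15 were higher and 9 lower, with a median of 0.12. At an unadjusted p under 0.05 there were 3 higher, with S100A4 (1.01) and PLAUR (0.68) among them, and 1 lower, SNAI2 (-1.18). S100A4 and SNAI2 had split controls. Of 36 keratins and epithelial junction genes, 20 were higher and 16 lower, with a median of 0.06. At that p 5 were higher, among them JUP (0.93) and CLDN1 (1.21), and 3 lower, among them EPCAM (-1.25). JUP and EPCAM had split controls. Of 24 YAP/TEAD targets, 16 were higher, with a median of 0.05, and 1, NUAK2 (1.14), was higher at that p.

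Among 18 genes of microRNA processing, DICER1, which cuts shRNAs and microRNA precursors, was the only gene at an unadjusted p under 0.05. It had 203 and 291 CPM with sh-MIR100HG-1, 144 and 147 CPM with sh-MIR100HG-2, and 78.2 and 54.8 CPM in the controls. Both shRNA groups lay above both controls and did not overlap each other (log2FC -0.76, SE 0.26). The list's median was -0.10.

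Genes with a site of either shRNA seed in the 3′UTR differed between the shRNAs by a like amount. ACTTAAA, the site of the sh-MIR100HG-1 seed, was present in the annotated 3′UTR of 2689 of 13820 genes (19.5%). The median log2FC between the shRNAs was -0.135 with the site and 0.030 without it, a difference of -0.165. AGAATAA, the site of the sh-MIR100HG-2 seed, was present in 2827 genes (20.5%), with medians of -0.122 and 0.028, a difference of -0.149. Genes with either site were thus on the lower side with sh-MIR100HG-2. Within short, middle and long 3′UTRs, bins of equal size, the differences were -0.11 to -0.15 for the first site and -0.12 to -0.14 for the second. Between control replicates 2 and 1, which carry neither seed, they were -0.18 for both sites. Genes with a site have a lower GC content, at a median of 42.7% against 50.8% and 50.7%, and with the trends on length and GC content removed the differences were -0.003 and 0.009. Against the controls, genes with the sh-MIR100HG-1 site had a median 0.14 above the others with sh-MIR100HG-1 itself, and for genes with the sh-MIR100HG-2 site the difference with sh-MIR100HG-2 was -0.02. For the passenger strands the differences between the shRNAs were 0.05 and -0.03.

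Some genes of low level were high in the same pair of libraries. ESR1, the estrogen receptor gene that MDA-MB-231 cells do not use, had 2.79 CPM in sh-MIR100HG-1 replicate 1 and 2.38 CPM in control replicate 2, but 0.12 to 0.59 CPM in the other 4 samples. Its log2FC was -3.62 (SE 1.23), and -2.09 without sh-MIR100HG-1 replicate 1. By a criterion written after these values were seen, over 1 CPM in both of these libraries and over 3 times the highest of the others, 42 genes shared the pattern. They have known roles in cells as different as lymphocytes, neurons and endothelium: BTK, GRM3, TEK and FLT1, with ALK, ROS1, ERBB4 and LRP1B among the highest. LRP1B had 14.9 CPM in sh-MIR100HG-1 replicate 1 and 14.1 CPM in control replicate 2, against 0.70 to 1.18 CPM elsewhere. The medians over these genes were 3.71 and 3.51 CPM in those libraries and 0.22 to 0.34 CPM in the others. The criterion puts sh-MIR100HG-1 replicate 1 over 3 times both sh-MIR100HG-2 samples, so all 42 were lower with sh-MIR100HG-2 by selection. In the comparison of the shRNAs, 14 of the 42 had an unadjusted p under 0.05, against 6.12% of genes tested that were lower at that p. Since the direction was fixed by the criterion, this count is no result about these genes. Many of them, such as ALK, ROS1, ERBB4 and BTK, are genes that panels for cancer sequencing commonly hold. Whether these low values come from the RNA of the cells or from reads of other material in the 2 libraries was not tested. None of the genes named for a difference above other than ESR1 is among them.

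Markers of other cell types were read with this in mind. Endothelial markers summed to 5.79 CPM in sh-MIR100HG-1 replicate 1 and 6.44 CPM in control replicate 2, mostly TEK, and to 0.95 to 1.58 CPM in the others, while CDH5 was at 0.16 CPM or less throughout. Leukocyte markers summed to 175 to 257 CPM, nearly all of it CD68, and PTPRC was at 0.69 CPM or less. Fibroblast markers summed to 68.7 and 55.0 CPM with sh-MIR100HG-1 compared with 75.2 and 88.5 CPM for sh-MIR100HG-2, mostly COL1A1, with DCN at 0.20 CPM or less in every sample. Luminal factors and receptors summed to 254 to 339 CPM, mostly XBP1 and ERBB2. The neuronal-like markers summed to 4.36 CPM in sh-MIR100HG-1 replicate 1, of which NEFM was 2.65 CPM, and to 0.50 to 1.56 CPM elsewhere.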

How the data were processed

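The deposited table holds raw counts per gene, to which the authors applied no normalization. Per the methods, the authors trimmed barcodes, mapped reads to GRCh37 with STAR, and assigned them to GENCODE exons grouped into genes with FeatureCounts; strandedness and the handling of multi-mapped reads are not given in the sources used here, so overlapping and near-identical genes are uncertain. A filter after that of the study kept 15372 genes that reached 5 counts in 4 or more samples and removed 12373. Counts were TMM-normalized and fitted with edgeR 4.0.16 (R 4.3.3; quasi-likelihood, 3 groups, 3 residual and 5.37 prior degrees of freedom), with the contrast of sh-MIR100HG-2 minus sh-MIR100HG-1. Benjamini-Hochberg adjustment covered all genes tested. Unadjusted p-values come from the same edgeR test. Log2 values per sample used a pseudocount of 0.125 CPM.

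The comparison, the gene lists and the rule for named genes were chosen with earlier results of these data known. The rule took MIR100HG, the 12 genes with the smallest p in each direction, the 5 largest log2FC in each direction among genes of at least 10 CPM on average, up to 3 genes per list, and genes the study names. Not all are reported here, and exceptions are marked. Seurat supplied the lists for S phase and G2/M, and all remaining lists were compiled by hand. Gene lists were described by counts and medians, with no set test. GC content, exon length and 3′UTRs (the seed-site search used those of at least 50 bases) came from a GENCODE annotation of the same build. shRNA sequences came from the study's list of oligonucleotides. The fit was tested on simulated counts. Floors and intervals cover counting error only. Alternatives were the likelihood ratio test, DESeq2 1.42.0, RLE factors, no filter, the bias-adjusted fit, only the 4 shRNA samples, a replicate block, removal of trends on length and GC content, and leaving out each sample.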

Additional observations from a re-analysis of the deposited data

Results flagged for a closer look

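In the following, both samples of one shRNA lay above both controls and both samples of the other below them. This placement was not tested as such beyond the comparison of the shRNAs, and all values are log2FC of sh-MIR100HG-2 minus sh-MIR100HG-1. Over all genes tested, 116 (0.75%) had sh-MIR100HG-1 below and sh-MIR100HG-2 above both controls and 183 (1.19%) the reverse. Whether these shares exceed what the spread between samples alone would give was not tested. The genes named below were taken for a small unadjusted p between the shRNAs, so their separation was selected for. The genes with sh-MIR100HG-2 on the upper side were SAA1 (2.21), RSAD2 (2.04), CHI3L2 (2.86, with 0.40 to 0.47 CPM for sh-MIR100HG-1 and 2.98 to 3.37 CPM for sh-MIR100HG-2), CCL5 (2.30), TNFAIP2 (1.10) and APCDD1L (1.45). Those with sh-MIR100HG-2 on the lower side were MT-ATP8 (-1.06), MT-ND1 (-1.35), KIF15 (-1.03), BLM (-0.97) and COX6C (-0.59). COL10A1 (-6.96) and GRIN2C (-3.27) belong to the same group with few counts. The fitted value of COL10A1 depends on the prior count, and the bound is the at least 4.64-fold given above. GRIN2C had 47 and 23 counts with sh-MIR100HG-1 and 3 and 3 with sh-MIR100HG-2, a ratio of 10.2 (95% exact interval 4.47 to 28.8).

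Of the gene lists, the medians of the mitotic spindle and kinetochore genes (-0.55), the mitochondrially encoded proteins (-1.01), the S-phase genes (-0.19) and the G2/M genes (-0.42) had sh-MIR100HG-1 above and sh-MIR100HG-2 below both controls. The controls lay 0.46 apart in the mitochondrially encoded genes and 0.20 apart in the spindle genes, in the direction of the difference between the shRNAs.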

How the results depend on the processing

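At an adjusted p at or below 0.05 there were 0 genes in the fit reported, 103 with DESeq2, 91 with the likelihood ratio test, 679 with no filter on low counts and 7 with only the 4 shRNA samples, and 0 to 7 when 1 sample was left out (6 and 7 without a control, 0 without an shRNA sample). At an unadjusted p under 0.05, no filter gave 832 higher and 1525 lower genes, against 513 and 940, and leaving out 1 sample gave 345 to 581 higher and 578 to 1364 lower. The lowest count of lower genes came without sh-MIR100HG-1 replicate 2. Blocking on the replicate number (replicate block) gave 711 higher and 1305 lower genes and 0 at the adjusted threshold. That block covered the controls as well. The deviations of same-numbered samples correlated at 0.617 between the shRNAs, -0.212 between control and sh-MIR100HG-1 and 0.069 between control and sh-MIR100HG-2. The labels do not say what a number marks, so whether same-numbered shRNA samples are paired is not known. Within each number, CDKN1B, CDC25A and CCNF were higher with sh-MIR100HG-2, and the direction for WEE1 and CDK18 differed between the numbers. The log2FC of MIR100HG was 0.093 with the length and GC trends removed and -0.45 to 0.22 with 1 sample left out. With those trends removed, the list medians were -0.34 for the spindle genes and -0.76 for the mitochondrially encoded proteins, and the differences at seed sites were -0.003 (sh-MIR100HG-1) and 0.009 (sh-MIR100HG-2). With 1 sample left out, the medians ranged from -0.59 to -0.49 for the spindle genes, from 0.53 to 1.0 for the interferon-stimulated genes, from -1.17 to -0.86 for the mitochondrially encoded proteins, from 0.068 to 0.84 for the NF-kB list and from -0.50 to -0.078 for the immediate early genes. The NF-kB median was highest, and that of the immediate early genes lowest, without sh-MIR100HG-2 replicate 2. The differences at seed sites ranged from -0.287 to -0.062 for sh-MIR100HG-1 and from -0.249 to -0.061 for sh-MIR100HG-2. The direction turned in 14 of 1414 values of other named genes, all of genes with overlapping shRNA groups. CDC25A, CCNF and CDKN1B turned without sh-MIR100HG-1 replicate 1 and without sh-MIR100HG-2 replicate 2, and with 1 sample left out their values ranged from -0.086 to 0.70, -0.088 to 0.39 and -0.14 to 0.48. CDK18 (-0.50 to 0.57) turned without sh-MIR100HG-1 replicate 2 and sh-MIR100HG-2 replicate 2, UBASH3B (-0.18 to 0.22) without sh-MIR100HG-2 replicate 2, and SORL1 (-0.21 to 0.019) without sh-MIR100HG-2 replicate 1. WEE1 (-0.41 to 0.22) turned without sh-MIR100HG-1 replicate 2 and sh-MIR100HG-2 replicate 1. With the length and GC trends removed, SORL1 had 0.021 and WEE1 0.19. For 34 list medians under 14 alternatives each, 427 of 476 values moved by less than the spread between replicates, and 31 values of 15 medians, that of all genes included, had the other sign. Beside the cholesterol and ATF4 lists, these include 0.122 for the integrins and laminins without sh-MIR100HG-1 replicate 1, -0.356 for the keratins and junction genes without sh-MIR100HG-2 replicate 2, 0.595 for the histones without sh-MIR100HG-1 replicate 2 and 0.026 for microRNA processing with the length and GC trends removed. The cause of these differences was not tested. Where a sample is left out, its group holds 1 sample, which is assumed to vary like the others.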
